A study of Mus musculus with 36 samples.

Results

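The genes described here are 9 immediate early transcription factor genes: Fos, Fosb, Jun and Junb of the AP-1 family, Egr1, Egr2 and Egr3 of the EGR family, and Nr4a1 and Nr4a3 of the NR4A family. They were chosen by symbol. Each is the array probe set that carries exactly 1 annotated symbol, and all 9 matched 1 such probe set each, among 22180 genes named in this way. All 9 also passed the filter on low values and were among the 13082 genes tested.

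The study profiled 36 samples of mouse CD4 T cells on expression arrays, in 12 groups of 3. KO cells came from mice labelled as lacking Trim28, and WT cells came from littermates. Trim28 encodes a co-repressor of transcription that is brought to chromatin by KRAB zinc finger proteins. Cells of both genotypes were enriched magnetically, sorted by flow cytometry as naive CD4 T cells, and either profiled as such or stimulated for 72 h. The stimulus in the 5 stimulated conditions was an antibody to CD3 fixed to the plate with a soluble antibody to CD28. These conditions are named Th0 (no lineage named), Th1, Th2, Th17 and Treg. The labels give neither the allele or Cre driver behind the deletion, nor the cytokines of each condition, nor the ages of the mice. Nor is it stated that each sample is a mouse of its own. The p-values then measure only the spread between these samples, which may be technical.

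Immediate early genes are transcribed within minutes of a signal, without new protein synthesis, and most of their transcripts are short-lived. In T cells, signals from the antigen receptor and CD28 reach them through calcium and MAP kinases and through factors such as SRF with its ELK partners, CREB, MEF2 and NFAT. FOS and JUN proteins pair to form AP-1, EGR proteins are zinc finger factors, and NR4A proteins are orphan nuclear receptors. Nr4a1 is widely used in mice as a reporter of antigen receptor signalling.

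Promoter sequences are shown for 4 of the members, because Nr4a1, Nr4a3 and Egr2 varied together from sample to sample while Fos varied apart from them (described further on). Each is the 250 bases before a transcription start listed by RefSeq on mouse build GRCm38.p6, on the plus strand, and windows of 7 of the 9 members were used. Egr1 and Egr3 were not searched, and a motif farther upstream than 250 bases would not be seen in any member. Capitals mark the core of the cAMP response element, TGACG or its reverse complement CGTCA, and in Egr2 also 1 CArG box, the binding motif of SRF. The Fos window lies at chr12:85473640-85473889, directly before the gene. Egr2 has 5 listed starts, and the window shown, at chr10:67537619-67537868, lies within its annotated span of chr10:67534469-67542188. The Nr4a1 window at chr15:101266596-101266845 likewise lies within that gene's span of chr15:101253902-101274795. The Nr4a3 window at chr4:48045055-48045304 covers the first annotated bases of the gene, which runs over chr4:48045078-48086447.
Fos: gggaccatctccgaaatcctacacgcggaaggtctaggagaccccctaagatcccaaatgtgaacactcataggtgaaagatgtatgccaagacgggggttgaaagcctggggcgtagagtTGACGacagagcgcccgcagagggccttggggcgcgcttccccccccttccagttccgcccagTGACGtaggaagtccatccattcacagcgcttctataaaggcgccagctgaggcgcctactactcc
Egr2: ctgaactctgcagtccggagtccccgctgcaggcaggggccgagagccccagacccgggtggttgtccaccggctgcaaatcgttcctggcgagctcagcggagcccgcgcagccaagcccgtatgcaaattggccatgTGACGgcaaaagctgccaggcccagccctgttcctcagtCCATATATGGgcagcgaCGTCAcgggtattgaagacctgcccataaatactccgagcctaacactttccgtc
Nr4a1: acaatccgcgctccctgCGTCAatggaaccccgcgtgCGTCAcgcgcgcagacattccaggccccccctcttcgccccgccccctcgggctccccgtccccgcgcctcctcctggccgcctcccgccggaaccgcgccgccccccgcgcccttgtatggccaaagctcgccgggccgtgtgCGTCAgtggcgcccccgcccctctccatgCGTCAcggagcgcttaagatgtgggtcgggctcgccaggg
Nr4a3: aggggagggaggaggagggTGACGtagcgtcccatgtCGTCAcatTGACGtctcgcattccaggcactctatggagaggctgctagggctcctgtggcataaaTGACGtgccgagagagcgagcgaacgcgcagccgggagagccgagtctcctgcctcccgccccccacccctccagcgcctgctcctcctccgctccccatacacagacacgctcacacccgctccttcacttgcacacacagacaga

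Nr4a1 held 4 copies of the core, starting 233, 213, 69 and 40 bases before its start, and Nr4a3 held 4, at 231, 213, 205 and 147 bases. Among all 32851 mouse windows of this length, 17.8% held at least 1 copy and 0.688% held 3 or more. Fos held 2 copies, at 129 and 66 bases, and Egr2 held 2, at 111 and 55 bases, with the CArG box at 72 bases. A CArG box was found in 1.47% of all windows. Junb and Fosb held 1 core each and Jun held none in this window. The EGR motif GCGNGGGCG, found in 4.7% of all windows, occurred once in Nr4a1 and once in Fosb. In the 7 windows neither the full element TGACGTCA nor the AP-1 motif TGANTCA was found, against 1.55% and 6.75% of all windows. Both strands were searched, and the full element contains the core. These are matches of letters only, and their part in how the members varied from sample to sample was not tested.

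Values are log2 array intensities as the authors deposited them, on which 1 unit is a 2-fold difference. Levels are compared between samples for 1 gene and never between genes, whose probes differ. In such bulk samples a lower level can come from fewer cells that hold a transcript or from less RNA per cell, and these cannot be told apart. Changes come from a limma fit to all 36 samples, with the standard error (SE) after each. They are called where the p-value adjusted over the 13082 genes is under 0.05. For each gene the fit pools the spread of all 12 groups, so its SE does not follow the groups compared. The standard deviation of Nr4a1, for example, ran from 0.04 in KO Th17 to 2.08 in KO Treg. Such an SE can be too large for tight groups and too small for wide ones. As a check of genotype, Trim28 stood at 7.20 to 7.86 in KO naive samples and at 5.51 to 6.58 in KO stimulated samples, against 9.21 to 9.99 in WT samples. The mean over 7 T cell markers was 10.5 to 11.3 in all samples. KO Th0 sample 1 and KO Th1 sample 1 stood apart in Mki67, a marker of cycling cells, at 8.614 and 9.003, against 10.6 to 10.9 in the other KO samples of these conditions and 11.4 to 11.8 in WT Th0 and Th1 samples. Array number, 3 per group, limits the precision.

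**Figure D1:**
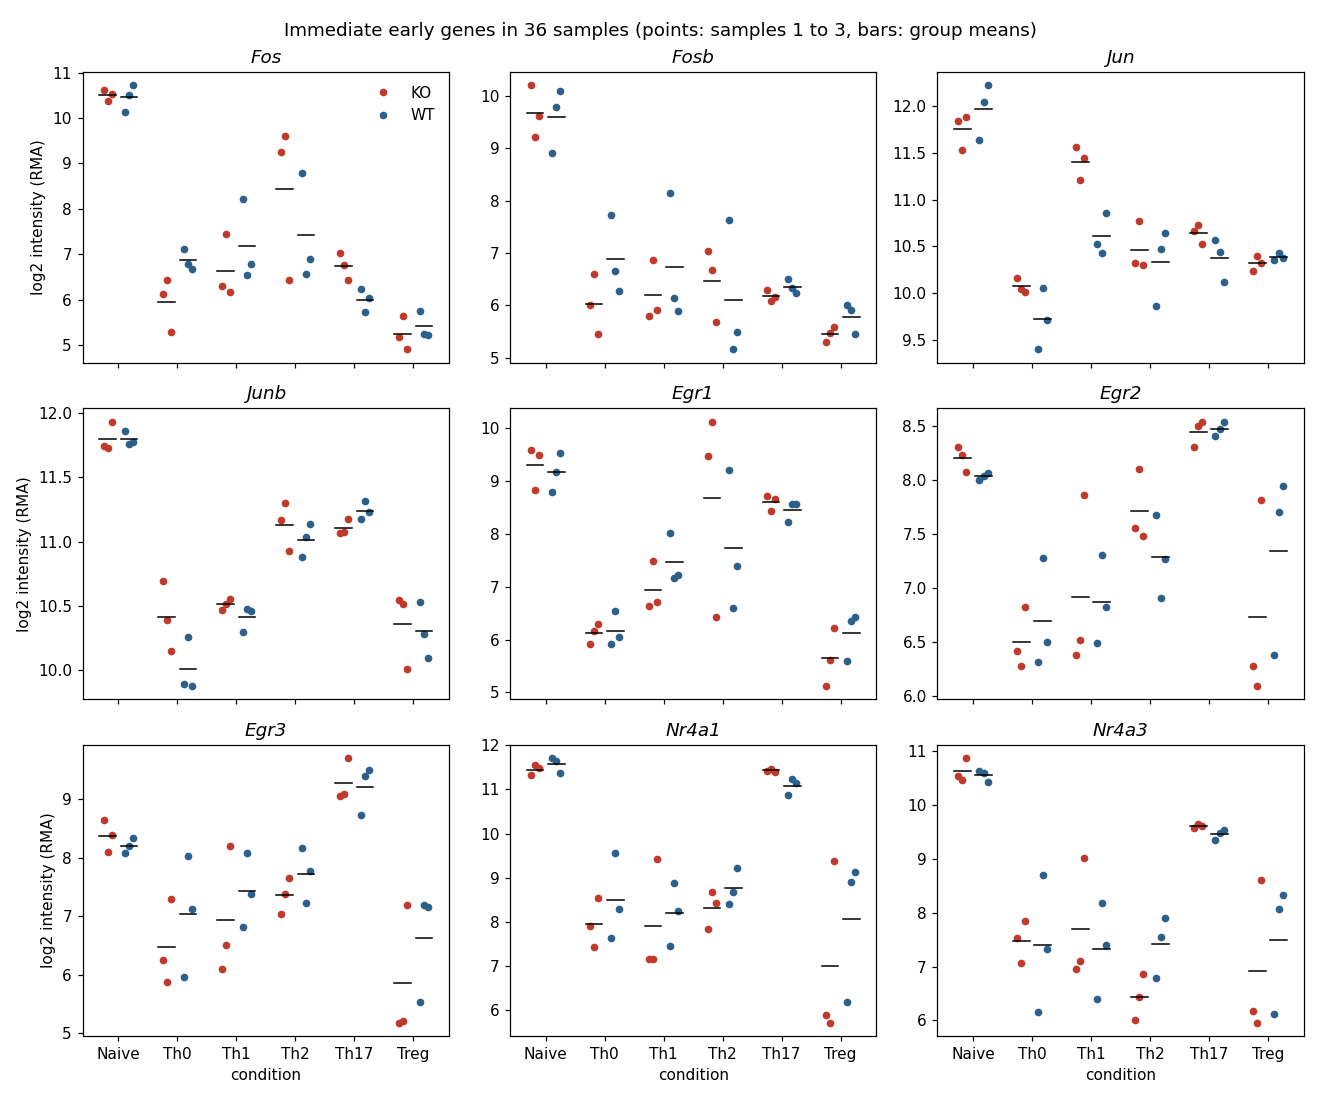
Log2 array intensity of each of the 9 genes in all 36 samples, by condition from naive to Treg, with KO points (red) left of WT points (blue) and bars at group means. All 9 genes were high in naive cells of both genotypes, and the group means of Egr2 and Egr3 were highest in Th17, the condition in which Nr4a1 and Nr4a3 also came closest to their naive levels.

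All 9 members fell in KO Th0 cells relative to KO naive cells, and 8 of 9 in WT Th0 cells relative to WT naive cells. Naive cells were profiled after sorting, and no group was cultured without the stimulus. The effects of stimulation, of 72 h in culture and of fresh sorting on these levels therefore cannot be told apart. Over all genes, 14.7% fell in the KO comparison and 22.3% in the WT comparison. The median change of the members was -3.15 in KO and -2.71 in WT, beside 0.06 and 0.04 over all genes tested. The fall was deepest for Fos, at 23.6-fold in KO and 12.1-fold in WT, and shallowest among those that passed for Junb in KO and Egr2 in WT.

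Of the FOS proteins, which need a partner to bind DNA, Fos stood at 6.12, 6.43 and 5.28 in KO Th0 samples, against 10.63, 10.37 and 10.53 in KO naive samples. In WT it stood at 7.12, 6.79 and 6.67 in Th0 samples, against 10.14, 10.51 and 10.73 in naive samples. No Th0 sample came within 3 units of a naive sample, and the change was -4.56 (0.57, adjusted p = 2.6e-07) in KO and -3.60 (0.57, adjusted p = 4.5e-06) in WT. Fosb had 6.02, 6.60 and 5.46 in KO Th0 samples, against 10.20, 9.20 and 9.61 in KO naive samples. In WT it had 7.73, 6.65 and 6.28 in Th0 samples, against 8.91, 9.78 and 10.08 in naive samples. Its groups were separate in both genotypes, and it fell by 3.64 (0.53) in KO and by 2.71 (0.53) in WT.

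Jun, which binds DNA as a homodimer or with FOS, fell less. It stood at 10.16, 10.05 and 10.01 in KO Th0 samples, against 11.84, 11.54 and 11.89 in KO naive samples, and at 9.40, 10.05 and 9.71 in WT Th0 samples, against 11.64, 12.05 and 12.23 in WT naive samples. The change was -1.68 (0.18, adjusted p = 2.1e-08) in KO and -2.26 (0.18, adjusted p = 3.5e-11) in WT. Junb, whose protein competes with JUN in several settings, had 10.69, 10.39 and 10.15 in KO Th0 samples, against 11.74, 11.73 and 11.93 in KO naive samples. WT cells had 9.89, 10.26 and 9.88 in Th0 samples, against 11.86, 11.76 and 11.77 in naive samples. Both JUN genes remained well separated between the conditions, and Junb changed by -1.39 (0.14) in KO and by -1.79 (0.14) in WT.

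Among the EGR genes, Egr1 had 5.92, 6.15 and 6.28 in KO Th0 samples, against 9.60, 8.83 and 9.50 in KO naive samples. In WT it had 5.92, 6.54 and 6.05 in Th0 samples, against 8.79, 9.18 and 9.53 in naive samples. This put Egr1 3.19 (0.59) lower in KO Th0 cells and 2.99 (0.59) lower in WT Th0 cells on the log2 scale, with no overlap. Egr2 and Egr3, whose proteins are linked in mice to the restraint of T cell activation, moved less. Egr2 had 6.42, 6.28 and 6.82 in KO Th0 samples, against 8.31, 8.23 and 8.08 in KO naive samples, and 6.32, 7.28 and 6.50 in WT Th0 samples, against 8.0, 8.04 and 8.07 in WT naive samples. It changed by -1.70 (0.39) in KO and by -1.34 (0.39, adjusted p = 0.0045) in WT. Egr3 had 6.24, 5.87 and 7.29 in KO Th0 samples, against 8.64, 8.10 and 8.38 in KO naive samples, a change of -1.91 (0.55, adjusted p = 0.0062). WT cells had 5.96, 8.03 and 7.13 in Th0 samples, against 8.09, 8.21 and 8.33 in naive samples. WT Th0 sample 2 lay just below the naive samples, and the WT change of -1.17 (0.55, adjusted p = 0.073) did not pass. It passed without that sample, at -1.66 (adjusted p = 0.02), and in a fit to the WT naive and WT Th0 samples alone (adjusted p = 0.049).

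The NR4A genes fell about as far as Egr1. Nr4a1 had 7.91, 7.43 and 8.53 in KO Th0 samples, against 11.33, 11.55 and 11.48 in KO naive samples. In WT it had 7.63, 9.57 and 8.29 in Th0 samples, against 11.71, 11.64 and 11.36 in naive samples. Its naive samples spread by less than 0.4 and its WT Th0 samples by nearly 2 units, and it changed by -3.50 (0.73, adjusted p = 0.00031) in KO and by -3.08 (0.73, adjusted p = 0.00072) in WT. Nr4a3 had 7.53, 7.07 and 7.85 in KO Th0 samples, against 10.55, 10.46 and 10.87 in KO naive samples. WT cells had 6.16, 8.70 and 7.33 in Th0 samples, against 10.63, 10.59 and 10.44 in naive samples. The groups were apart in both genotypes, with changes of -3.15 (0.62) in KO and -3.16 (0.62) in WT.

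Whether KO and WT cells differ in these falls was tested directly, as the KO change minus the WT change. With limma 0 of 9 members passed, while 18.5% of all genes did, and 2 of 9 had an unadjusted p under 0.05. These were Jun, at 0.58 (0.25, 95% interval 0.05 to 1.10, adjusted p = 0.12), and Junb, at 0.40 (0.19, 95% interval 0.00 to 0.79, adjusted p = 0.16). The intervals of Fos, at -0.96 (0.80) with -2.61 to 0.68, and of Nr4a1, at -0.42 (1.03) with -2.53 to 1.69, leave room for differences of over 2 units.

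Other genes of the same early response moved mostly the same way. Of 36 other immediate early genes, 21 fell and 2 rose in KO Th0 cells relative to KO naive cells, with a median of -0.73, and 27 fell and 4 rose in the WT comparison, with a median of -1.23. Rgs2, a regulator of G protein signalling, fell by 2.91 (0.35) in KO and by 3.90 (0.35) in WT. Ppp1r15a, which directs a phosphatase to eIF2alpha, fell by 2.89 (0.26) in KO and by 3.28 (0.26) in WT. Sik1, a kinase gene induced by cAMP, fell by 2.35 (0.20) in KO and by 3.21 (0.20) in WT. Klf4 fell by 2.37 (0.21) in KO, and Tnfaip3, an inhibitor of NF-kappaB signalling, fell by 3.18 (0.24) in WT.

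Among 10 tested relatives of AP-1, 4 fell in KO and 4 fell in WT while 1, Batf, rose in WT, by 0.72 (0.17). The 4 that fell were Maff, Fosl2, Mafk and Maf in both genotypes, Maff most, by 2.66 (0.20) in KO and by 2.68 (0.20) in WT. Nr4a2, the remaining NR4A gene, fell by 1.44 (0.43) in KO and by 1.70 (0.43) in WT. Of 16 upstream kinase and factor genes, 5 fell and 1 rose in KO, and 4 fell and 1 rose in WT. Over all genes 14.7% fell in KO and 22.3% in WT, and whether any list differs from that was not tested. Mrtfa, an SRF coactivator, fell by 0.37 (0.09) in KO and by 0.61 (0.09) in WT. Heat shock genes also moved. In KO 8 of 11 fell and 0 rose, and in WT 5 fell and 3 rose. Hspa1b, an inducible HSP70 gene, fell by 2.28 (0.68) in KO and by 2.38 (0.68) in WT. Of 7 T cell markers, 1 rose in KO and 3 fell in WT. Of 4 tested myeloid markers, 1 fell in KO and 3 fell and 1 rose in WT, while the mean over 10 myeloid markers was 4.61 to 4.63 in KO Th0 samples, against 4.71 to 4.91 in KO naive samples, and 4.50 to 4.59 in WT Th0 samples, against 4.72 to 4.96 in WT naive samples. The part of heat shock genes and of these markers in the members' changes was not tested. Of 16 negative regulators linked to EGR2 and EGR3, 4 rose and 3 fell in KO and 4 rose and 6 fell in WT, led by rises of Nrn1 at 4.22 (0.29) in KO and 4.86 (0.29) in WT.

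**Figure D2:**
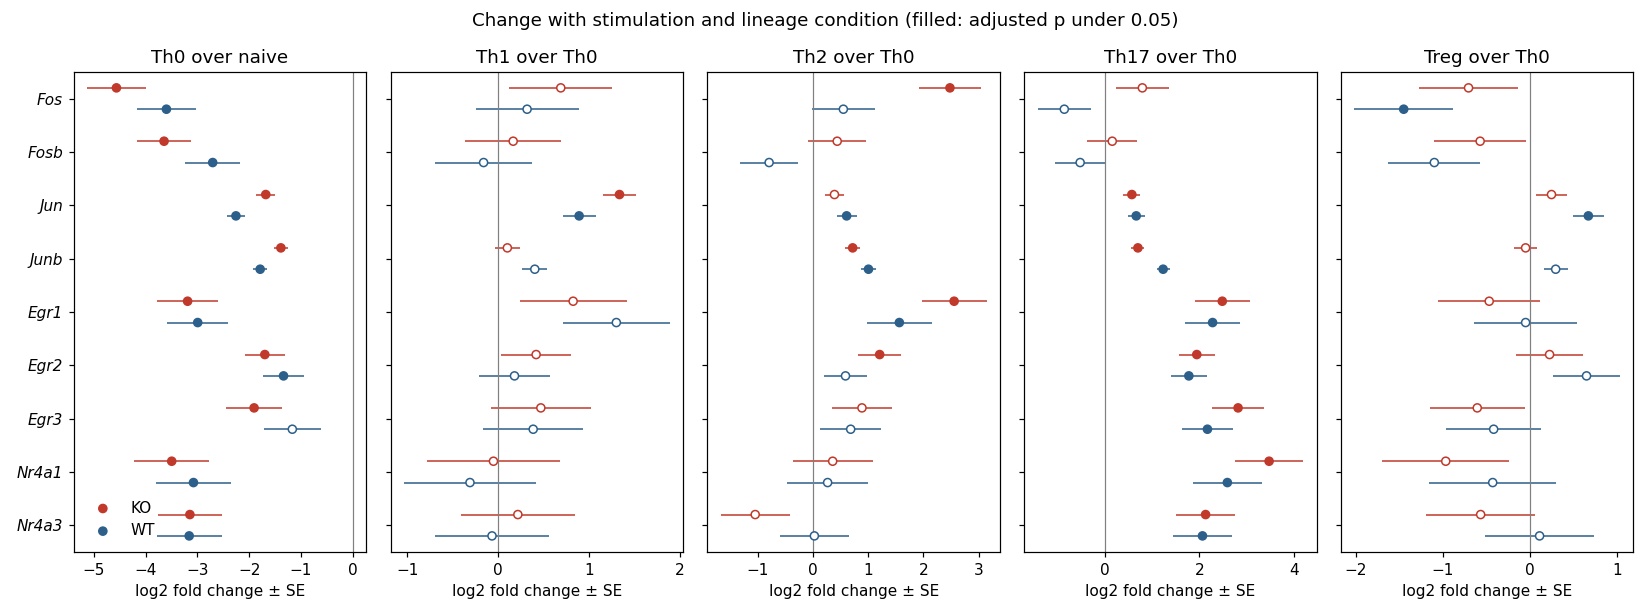
Log2 fold changes of the 9 genes with standard error bars, for Th0 over naive cells and for each lineage condition over Th0, with KO (red) above WT (blue) and filled points at an adjusted p under 0.05. All points of the Th0 panel are below 0, and 7 of 9 genes are filled and above 0 in Th17 in both genotypes.

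In Th17 conditions, 7 of 9 members rose relative to Th0 in KO and the same 7 rose in WT, where 25.4% and 20.3% of all genes rose. The 7 were Jun, Junb, Egr1, Egr2, Egr3, Nr4a1 and Nr4a3, and Nr4a1 rose most, 11.1-fold in KO and 6.03-fold in WT. Fos and Fosb did not pass. The members' median change was 1.94 in KO and 1.78 in WT, beside -0.01 and -0.04 over all genes.

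Nr4a1 had 11.42, 11.48 and 11.40 in KO Th17 samples, within 0.1 of each other, against the KO Th0 values of 7.43 to 8.53, a change of 3.48 (0.73, adjusted p = 0.00021). In WT it had 10.86, 11.24 and 11.16 in Th17 samples, against 7.63 to 9.57 in Th0 samples, a change of 2.59 (0.73, adjusted p = 0.0051). In level, KO Th17 cells overlapped KO naive cells, and WT Th17 cells lay just below WT naive cells. Nr4a3 had 9.57, 9.64 and 9.62 in KO Th17 samples, against 7.07 to 7.85 in KO Th0 samples, a rise of 2.13 (0.62). It had 9.35, 9.49 and 9.54 in WT Th17 samples, against 6.16 to 8.70 in WT Th0 samples, a rise of 2.06 (0.62), which did not pass without WT Th0 sample 1 (1.44, adjusted p = 0.094). Both NR4A genes thus lay apart from Th0 in every sample, and Nr4a3 stayed below its naive levels.

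Egr3 had 9.06, 9.09 and 9.70 in KO Th17 samples, against 5.87 to 7.29 in KO Th0 samples, a rise of 2.82 (0.55). In WT Th17 samples it had 8.73, 9.39 and 9.50, against 5.96 to 8.03 in WT Th0 samples, a rise of 2.17 (0.55). All Th17 samples exceeded all naive samples, which were at 8.09 to 8.64. Egr2 had 8.31, 8.50 and 8.54 in KO Th17 samples and 8.41, 8.47 and 8.54 in WT Th17 samples, with rises over Th0 of 1.94 (0.39) in KO and 1.78 (0.39) in WT. Egr1 had 8.72, 8.44 and 8.65 in KO Th17 samples and 8.22, 8.56 and 8.57 in WT Th17 samples, all under its naive levels, with rises of 2.48 (0.59) in KO and 2.28 (0.59) in WT. For Egr2 and Egr3, then, Th17 was the condition with the highest group mean in both genotypes.

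Junb had 11.07, 11.07 and 11.18 in KO Th17 samples and 11.18, 11.31 and 11.23 in WT Th17 samples, rising over Th0 by 0.70 (0.14) in KO and by 1.23 (0.14) in WT. Jun had 10.67, 10.73 and 10.53 in KO Th17 samples and 10.57, 10.44 and 10.12 in WT Th17 samples, with rises of 0.57 (0.18) in KO and 0.66 (0.18) in WT. The fitted rises of both JUN genes were smaller than those of the EGR and NR4A genes, a difference that was not tested between genes. Fos had 7.01, 6.76 and 6.43 in KO Th17 samples, against 5.28 to 6.43 in KO Th0 samples, a change of 0.79 (0.57, adjusted p = 0.26). In WT Th17 samples Fos had 6.22, 5.73 and 6.04, against 6.67 to 7.12 in WT Th0 samples, a change of -0.86 (0.57, adjusted p = 0.24). These WT groups did not overlap, and the change passed in a fit to them alone (adjusted p = 0.0029). Fosb changed by 0.15 (0.53) in KO and by -0.53 (0.53) in WT.

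Relatives of AP-1 rose with Th17 as well, 8 of 10 in KO, and 8 with 1 falling in WT. Batf3, a partner of JUN proteins, rose by 3.24 (0.38) in KO and by 3.42 (0.38) in WT, Fosl2 by 2.86 (0.21) and 2.60 (0.21), and Maf by 2.33 (0.16) and 3.70 (0.16). Nr4a2 rose by 2.38 (0.43) in KO and by 2.24 (0.43) in WT. Nab2 and Nab1, corepressors of EGR proteins, rose in KO, by 0.81 (0.22) and 0.30 (0.08). Of the 36 other immediate early genes, 10 rose and 7 fell in KO and 14 rose and 4 fell in WT, led by a rise of Ier3 at 4.42 (0.32) in KO and 3.68 (0.32) in WT. Of the regulators linked to EGR2 and EGR3, 5 rose and 6 fell in KO and 5 rose and 3 fell in WT. Lag3, an inhibitory receptor, rose most, by 3.86 (0.27) in KO and by 3.42 (0.27) in WT. Among B cell markers, 2 of 3 tested rose in KO Th17 cells and 1 in WT Th17 cells. The mean over 7 B cell markers was 4.92 to 5.09 in KO Th17 samples, against 4.29 to 4.35 in KO Th0 samples, and 4.86 to 4.92 in WT Th17 samples, against 4.28 to 4.44 in WT Th0 samples. The defining markers Ms4a1 and Cd79a did not reach the filter, and the part of these shifts in the members' rises was not tested.

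In Th2 conditions, 4 of 9 members rose relative to Th0 in KO and 3 of 9 in WT, where 18.4% and 17.2% of all genes rose. Junb and Egr1 rose in both genotypes, Fos and Egr2 in KO, and Jun in WT. Neither NR4A gene passed in the fit to all samples. The members' median change was 0.72 in KO and 0.59 in WT, beside -0.04 and -0.06 over all genes.

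Egr1 had 9.48, 10.12 and 6.43 in KO Th2 samples, against 5.92 to 6.28 in KO Th0 samples. It had 9.21, 6.60 and 7.40 in WT Th2 samples, against 5.92 to 6.54 in WT Th0 samples. The Th2 samples lay above the Th0 samples but spread by more than 2 units, and the rises were 2.56 (0.59, adjusted p = 0.00077) in KO and 1.57 (0.59, adjusted p = 0.034) in WT. In a fit to the Th2 and Th0 samples of a genotype alone neither rise passed (adjusted p = 0.054 in KO and 0.07 in WT). The WT rise also did not pass with no filter on low values (adjusted p = 0.05), without WT Th2 sample 1 (0.83, adjusted p = 0.28), without WT Th0 sample 1 (1.44, adjusted p = 0.1) or without WT Th0 sample 3 (1.50, adjusted p = 0.082). Fos had the same high and low samples. It had 9.25, 9.60 and 6.43 in KO Th2 samples, against 5.28 to 6.43 in KO Th0 samples, a rise of 2.48 (0.57, adjusted p = 0.00072). WT cells had 8.78, 6.57 and 6.89 in Th2 samples, against 6.67 to 7.12 in Th0 samples, an overlap, with a change of 0.55 (0.57, adjusted p = 0.48).

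Junb was the steadiest, with 11.16, 11.30 and 10.92 in KO Th2 samples and 10.88, 11.03 and 11.13 in WT Th2 samples. It rose over Th0 by 0.72 (0.14, adjusted p = 8.9e-05) in KO and by 1.01 (0.14, adjusted p = 8.8e-07) in WT, with no overlap. Egr2 had 7.56, 8.10 and 7.49 in KO Th2 samples, a rise of 1.21 (0.39, adjusted p = 0.012) that did not pass without KO Th2 sample 2 (1.02, adjusted p = 0.068). In WT Th2 samples Egr2 had 7.68, 6.91 and 7.28, a change of 0.59 (0.39, adjusted p = 0.24). Jun had 10.32, 10.77 and 10.30 in KO Th2 samples, a change of 0.39 (0.18, adjusted p = 0.082). In WT Th2 samples Jun had 9.87, 10.47 and 10.65, a rise of 0.61 (0.18, adjusted p = 0.0078). The WT rise of Jun did not pass without WT Th0 sample 1 or without WT Th2 sample 3, at 0.45 in both cases (adjusted p = 0.076 and 0.077), or in a fit to the WT Th2 and WT Th0 samples alone (adjusted p = 0.074).

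The members that did not pass in Th2 were Fosb, Egr3, Nr4a1 and Nr4a3. Fosb had 7.04, 6.68 and 5.68 in KO Th2 samples and 7.63, 5.16 and 5.49 in WT Th2 samples, with changes of 0.44 (0.53) in KO and -0.79 (0.53) in WT. Without WT Th2 sample 1 the WT change of Fosb was -1.56 and passed (adjusted p = 0.014). Egr3 had 7.03, 7.39 and 7.65 in KO Th2 samples and 8.17, 7.23 and 7.77 in WT Th2 samples, with changes of 0.89 (0.55) and 0.68 (0.55). Nr4a1 had 7.84, 8.68 and 8.43 in KO Th2 samples and 8.39, 8.68 and 9.21 in WT Th2 samples, with changes of 0.36 (0.73) and 0.27 (0.73). All of these overlapped their Th0 groups. Nr4a3 had 6.0, 6.44 and 6.86 in KO Th2 samples, below every KO Th0 sample, a change of -1.05 (0.62, adjusted p = 0.18) that passed in a fit to the KO Th2 and KO Th0 samples alone (adjusted p = 0.02). In WT Th2 samples it had 6.79, 7.56 and 7.91, a change of 0.03 (0.62).

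Among AP-1 relatives, 9 of 10 rose with Th2 in KO and 8 of 10 in WT. Jdp2, a repressor that pairs with JUN, rose by 4.21 (0.26) in KO and by 3.74 (0.26) in WT, and Atf3, a stress-induced member of the ATF family, by 3.38 (0.36) and 3.30 (0.36). Of the 36 other immediate early genes, 14 rose and 8 fell in KO and 15 rose and 5 fell in WT, with Ier3 at 4.12 (0.32) and 3.86 (0.32). Heat shock genes rose too, 7 of 11 in KO and 6 with 1 falling in WT, with Hspa1b at 2.73 (0.68) in KO and 2.47 (0.68) in WT. Of 16 upstream genes, 3 rose and 7 fell in KO and 1 rose and 4 fell in WT, with Crem, a cAMP-responsive factor, at 1.24 (0.17) in KO and 1.25 (0.17) in WT. Myeloid markers moved with the Th2 condition. Of 4 tested, 3 rose in KO, and 3 rose and 1 fell in WT. The mean over 10 myeloid markers was 5.22 to 5.48 in KO Th2 samples, against 4.61 to 4.63 in KO Th0 samples, and 5.07 to 5.19 in WT Th2 samples, against 4.50 to 4.59 in WT Th0 samples. The defining markers Lyz2, Csf1r and Cd14 did not reach the filter, and the part of the others in the members' changes was not tested.

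In Th1 conditions only Jun rose relative to Th0, in both genotypes, 1 of 9 members in each, where 3.36% of all genes rose in KO and 5.43% in WT. Jun had 11.57, 11.21 and 11.45 in KO Th1 samples, against 10.01 to 10.16 in KO Th0 samples, a rise of 1.33 (0.18, adjusted p = 8.4e-06). In WT Th1 samples it had 10.53, 10.43 and 10.86, against 9.40 to 10.05 in WT Th0 samples, a rise of 0.89 (0.18, adjusted p = 0.00092). No Th1 sample overlapped its Th0 group. Junb had 10.47, 10.51 and 10.55 in KO Th1 samples and 10.30, 10.48 and 10.46 in WT Th1 samples, with changes of 0.10 (0.14) in KO and 0.40 (0.14, adjusted p = 0.056) in WT. Same-numbered WT Th1 and WT Th0 samples had correlated deviations from their group means, but the labels state no pairing. With the replicate number as a block the WT change of Junb passed (0.40, adjusted p = 0.05 as rounded). It also passed without WT Th0 sample 2 (0.53, adjusted p = 0.02).

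Egr1 in Th1 had 6.64, 7.49 and 6.71 in KO samples, against 5.92 to 6.28 in KO Th0 samples, and 8.03, 7.16 and 7.23 in WT samples, against 5.92 to 6.54 in WT Th0 samples. The groups did not overlap, yet the changes of 0.82 (0.59, adjusted p = 0.45) in KO and 1.30 (0.59, adjusted p = 0.18) in WT did not pass. The WT change passed in a fit to the WT Th1 and WT Th0 samples alone (adjusted p = 0.014). Fos had 6.29, 7.44 and 6.17 in KO Th1 samples and 8.22, 6.54 and 6.78 in WT Th1 samples. Fosb had 5.79, 6.87 and 5.91 in KO Th1 samples and 8.14, 6.14 and 5.90 in WT Th1 samples. Both overlapped Th0, with WT Th1 sample 1 highest for each. Egr2 had 6.38, 6.52 and 7.87 in KO Th1 samples and 6.49, 7.31 and 6.83 in WT Th1 samples. Egr3 had 6.10, 6.50 and 8.20 in KO Th1 samples and 6.81, 8.08 and 7.38 in WT Th1 samples. These 2 genes, like the NR4A genes, were highest in KO Th1 sample 3 and in WT Th1 sample 2. Nr4a1 had 7.15, 7.15 and 9.41 in KO Th1 samples and 7.44, 8.88 and 8.23 in WT Th1 samples. Nr4a3 had 6.96, 7.11 and 9.02 in KO Th1 samples and 6.40, 8.18 and 7.40 in WT Th1 samples. The changes of Fos, Fosb, Egr2, Egr3, Nr4a1 and Nr4a3 lay between -0.05 and 0.69 in KO and between -0.31 and 0.39 in WT. Of 7 tested CD8 and cytotoxic markers, 1 rose in KO Th1 cells and 4 in WT Th1 cells. The mean over 8 such markers was 6.17 to 6.47 in KO Th1 samples, against 5.47 to 6.01 in KO Th0 samples, and 6.72 to 6.92 in WT Th1 samples, against 5.55 to 5.80 in WT Th0 samples. Cd8a and Cd8b1, which define CD8 T cells, did not pass in either genotype, and the part of these markers in the rise of Jun was not tested.

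In Treg conditions 0 of 9 members changed relative to Th0 in KO by limma, with 0 at an unadjusted p under 0.05, where 19.6% of all genes changed. In WT, 2 of 9 changed, against 41.6% of all genes, Jun upward as in 19.2% and Fos downward as in 22.4%. Jun had 10.36, 10.43 and 10.38 in WT Treg samples, against 9.40 to 10.05 in WT Th0 samples, a rise of 0.67 (0.18, adjusted p = 0.0036). In KO Treg samples it had 10.24, 10.39 and 10.33, against 10.01 to 10.16 in KO Th0 samples, a change of 0.25 (0.18, adjusted p = 0.4). Fos was at its lowest group means in Treg, with 5.18, 5.64 and 4.90 in KO samples and 5.76, 5.25 and 5.22 in WT samples. In WT it fell by 1.45 (0.57, adjusted p = 0.04), and the KO change was -0.71 (0.57, adjusted p = 0.44). The WT fall of Fos did not pass when any of 5 of the 6 samples was left out, with values of -1.32 without WT Th0 sample 1, -1.49 without WT Th0 sample 2, -1.55 without WT Th0 sample 3, -1.37 without WT Treg sample 2 and -1.36 without WT Treg sample 3.

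The other members had wide Treg groups. Nr4a1 had 5.87, 5.70 and 9.38 in KO Treg samples and 6.16, 8.91 and 9.13 in WT Treg samples. Nr4a3 had 6.18, 5.96 and 8.60 in KO Treg samples and 6.11, 8.08 and 8.32 in WT Treg samples. Each genotype held samples of both kinds, with KO samples 1 and 2 and WT sample 1 low and the rest high. Egr3 had 5.18, 5.20 and 7.20 in KO Treg samples and 5.53, 7.18 and 7.15 in WT Treg samples. Egr2 had 6.28, 6.10 and 7.82 in KO Treg samples and 6.38, 7.71 and 7.95 in WT Treg samples. The same samples were low and high in these 2 genes. The KO change of Nr4a1 relative to Th0, -0.97 (0.73), passed without KO Treg sample 3 (-2.17, adjusted p = 0.017), and the WT change of Egr2, 0.65 (0.39), passed without WT Treg sample 1 (1.13, adjusted p = 0.021). Egr1 had 5.12, 5.61 and 6.22 in KO Treg samples and 5.59, 6.34 and 6.42 in WT Treg samples. Fosb had 5.30, 5.47 and 5.59 in KO Treg samples and 6.0, 5.91 and 5.45 in WT Treg samples, and its WT change of -1.10 (0.53, adjusted p = 0.098) passed in a fit to the WT Treg and WT Th0 samples alone (adjusted p = 0.037). Both were at their lowest group means in Treg. Junb had 10.55, 10.52 and 10.01 in KO Treg samples and 10.53, 10.28 and 10.10 in WT Treg samples. Its WT change of 0.29 (0.14, adjusted p = 0.086) passed with quantile normalization (0.34, adjusted p = 0.038), without WT Th0 sample 2 (0.42, adjusted p = 0.026) or without WT Treg sample 3 (0.40, adjusted p = 0.04). Of the 36 other immediate early genes, 3 rose and 7 fell in KO Treg cells, and 11 rose and 7 fell in WT Treg cells. T cell markers moved as well, 5 of 7 falling in KO and 3 in WT, and their part in the members' values was not tested.

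Between KO and WT cells few members passed. Of 9, 0 changed in naive cells, 1 in Th0, 1 in Th1 and 0 each in Th2, Th17 and Treg, where limma called 1.15%, 36.4%, 40.7%, 16.4%, 8.21% and 4.22% of all genes. In each of the 4 conditions with none called, 0 members had an unadjusted p under 0.05. The 2 that changed were JUN genes, both higher in KO, where 16.8% of all genes in Th0 and 17% in Th1 were higher. The samples also fall into a division by number that is described further on and is uneven between KO and WT. With a term for it, a choice made after seeing these data that supports no call, 3 members passed in Th0 and 5 in Th1. Fos stood at -1.15 (adjusted p = 0.0011) and Fosb at -1.21 (adjusted p = 0.009) in Th0. In Th1 Fos stood at -0.92 (adjusted p = 0.0061), Fosb at -0.96 (adjusted p = 0.033), Egr1 at -0.72 (adjusted p = 0.038) and Nr4a3 at 0.93 (adjusted p = 0.014). The calls of 0 in naive cells, Th2, Th17 and Treg were the same with that term. The members' median KO effect was -0.19 in Th0, -0.28 in Th1 and -0.47 in Treg, and 0.07 in naive cells, 0.14 in Th2 and 0.15 in Th17, while the median over all genes lay between -0.03 and 0.00 in each.

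Jun in Th1, with the KO and WT values given above, was higher in each KO sample than in any WT sample, by 0.80 (0.18, 95% interval 0.43 to 1.17, adjusted p = 8e-04), or 1.74-fold. The KO effect on Jun was unequal over the 6 conditions, by an F test (F = 3.94, adjusted p = 0.025), which 38.2% of all genes passed and no other member did. It was -0.22 (0.18) in naive cells, 0.36 (0.18) in Th0, 0.80 (0.18) in Th1, 0.14 (0.18) in Th2, 0.26 (0.18) in Th17 and -0.07 (0.18) in Treg. That F test did not pass without KO Th1 sample 1 (3.04), KO Th1 sample 3 (3.27), WT Th1 sample 1 (3.17) or WT Th1 sample 2 (2.99). Averaged over the 6 conditions, Jun was the 1 of 9 members that passed, at 0.21 (0.07, adjusted p = 0.02), where 46.4% of all genes did and 18.9% were higher. With each array centred on its own median the mean was 0.17 and did not pass (adjusted p = 0.052). In Th0 the KO effect on Jun did not pass (adjusted p = 0.13), but passed without WT Th0 sample 2 (0.52, adjusted p = 0.04).

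Junb in Th0 was 0.40 (0.14, 95% interval 0.12 to 0.68, adjusted p = 0.022) higher in KO cells, or 1.32-fold, although KO sample 3 lay below WT sample 2. The call was lost without KO Th0 sample 1 (0.26, adjusted p = 0.19), WT Th0 sample 1 (0.34, adjusted p = 0.09) or WT Th0 sample 3 (0.33, adjusted p = 0.1). It was also lost with median-centred arrays (0.34, adjusted p = 0.057) and in a fit to the Th0 samples alone (0.40, adjusted p = 0.1). KO Th0 sample 1, highest in Junb at 10.69, is the sample low in Mki67, which was 1.66 (0.42) lower in KO Th0 cells and 1.20 (0.42) lower in KO Th1 cells. Jun remained higher in KO Th1 cells without the KO samples numbered 1. The part of Mki67 in the call of Junb was not tested.

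**Figure D3:**
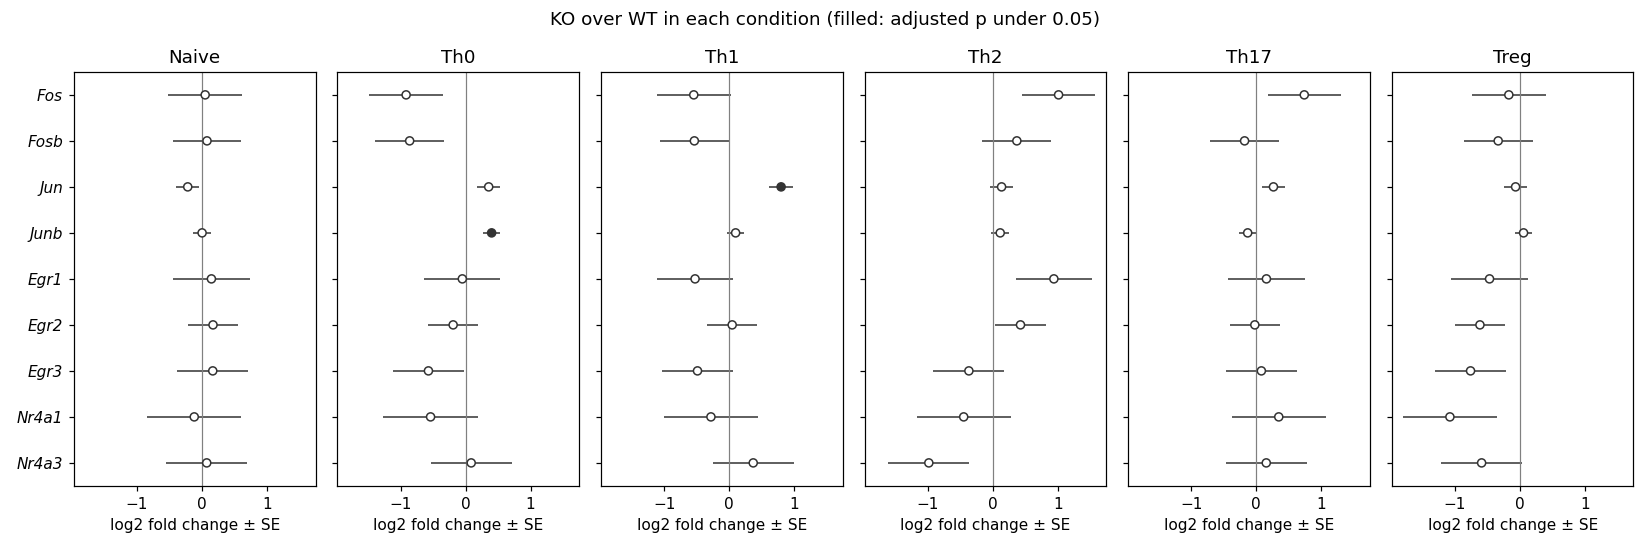
Log2 fold change of KO over WT with standard error bars for the 9 genes in each of the 6 conditions. Filled points passed at an adjusted p under 0.05, which were Junb in Th0 and Jun in Th1, and the wider bars belong to the genes whose samples varied most.

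For the other members the intervals were wide. In Th2 the KO effect was 1.01 (0.57, adjusted p = 0.24) on Fos and 0.94 (0.59, adjusted p = 0.3) on Egr1, where KO sample 3 was low in both. Without KO Th2 sample 3 both passed, Fos at 2.01 (adjusted p = 0.0042) and Egr1 at 2.06 (adjusted p = 0.0024), and Fos also passed without WT Th2 sample 1 (1.70, adjusted p = 0.047). Without KO Th2 sample 3, Fos and Egr1 also joined Jun in passing the F test (F = 5.28 and 4.49). Nr4a3 in Th2 was lower in KO cells by a change of -0.99 (0.62, adjusted p = 0.31). In Treg the KO effect on Nr4a1 was -1.08 (0.73, adjusted p = 0.54), which passed without KO Treg sample 3 (-2.28, adjusted p = 0.037). In Th0 it was -0.92 (0.57, adjusted p = 0.22) on Fos and -0.86 (0.53, adjusted p = 0.22) on Fosb, and the change of Fos passed in a fit to the Th0 samples alone (adjusted p = 0.043). In Th1, where Jun passed, the effect was -0.55 (0.57) on Fos, -0.54 (0.53) on Fosb, -0.53 (0.59) on Egr1 and 0.37 (0.62) on Nr4a3, and those on Junb, Egr2, Egr3 and Nr4a1 lay between -0.49 and 0.10. In Th17 the effects lay between -0.18 on Fosb and 0.74 on Fos, which passed in a fit to the Th17 samples alone (adjusted p = 0.035). Every KO Th17 sample exceeded every WT Th17 sample in Fos, Nr4a1 and Nr4a3, while the other members overlapped. Nr4a1 was at 11.40 to 11.48 in KO against 10.86 to 11.24 in WT, and Nr4a3 at 9.57 to 9.64 against 9.35 to 9.54. Neither NR4A effect passed in the fit to all samples. In Treg those other than Nr4a1 lay between -0.76 on Egr3 and 0.06 on Junb. In naive cells the effects of all 9 members lay between -0.22 and 0.17.

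Of 36 other immediate early genes, 14 were higher and 5 lower in KO cells in Th0, where 36.4% of all genes changed. In Th1 15 were higher and 5 lower, where 40.7% of all genes changed, and in Th2 7 were higher and 3 lower, where 16.4% did. Whether these shares differ from that of the 9 members was not tested. In Th0 these included Trib1 at 1.07 (0.25), the antiproliferative gene Btg1 at 1.06 (0.15), Sik1 at 1.0 (0.20) and, lower, Dusp6, a phosphatase of ERK kinases, at -1.59 (0.33). In Th1 they included Btg2 at 1.26 (0.17), Tnfaip3 at 1.02 (0.24), Zfp36l2 at 1.02 (0.13) and, lower, Ier3 at -1.09 (0.32). Of 16 upstream genes, 4 were higher in KO Th0 cells, and 6 higher and 1 lower in KO Th1 cells. Mef2d, a MEF2 factor, stood at 0.75 (0.11) in Th0 and 1.01 (0.11) in Th1. AP-1 relatives passed in Th1, 1 higher (Fosl2 at 0.57, SE 0.21) and 4 lower, among them Batf3 at -1.44 (0.38), Atf3 at -0.92 (0.36) and Jdp2 at -0.70 (0.26), whereas in Th0 0 of 10 passed. Of 11 heat shock genes, 6 were lower and 0 higher in KO Th0 cells and likewise in KO Th1 cells, led by Hspd1 at -1.24 (0.20) and -1.27 (0.20). Cdkn1a, 1 of the 16 negative regulators linked to EGR2 and EGR3, was lower at -1.68 (0.38) in Th0 and -1.80 (0.38) in Th1. It does not stand for that list, which went both ways in Th2. There Rnf128 was lower at -2.98 (0.15) and Nrn1 at -2.27 (0.29). Socs3 was higher at 0.58 (0.12) and Dgka at 0.44 (0.08). The others in the list did not pass in Th2, among them Cdkn1a at -0.26 (0.38, adjusted p = 0.71).

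The members did not vary as 1 block within groups. When each sample is taken as its deviation from its group mean, over 36 samples, Egr2, Egr3, Nr4a1 and Nr4a3 correlated with each other at 0.85 to 0.96, highest between Nr4a1 and Nr4a3. Fos correlated at 0.81 with both Fosb and Egr1, and Fosb with Egr1 at 0.64. Between the sets, Fos and Nr4a3 correlated at -0.50 and Fos and Nr4a1 at -0.38, while Jun and Junb stood at 0.34. These describe samples that share 12 group means and are not tested.

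The samples behind these deviations recur by number. In Treg, KO 3, WT 2 and WT 3 had Nr4a1 at 8.91 to 9.38, and KO 1, KO 2 and WT 1 at 5.70 to 6.16. In Th2, KO 1, KO 2 and WT 1 had Fos at 8.78 to 9.60, and KO 3, WT 2 and WT 3 at 6.43 to 6.89. So the samples that were high in Nr4a1 in Treg carry the numbers of those low in Fos in Th2. The naive samples fall along the same numbers in Xist, a gene of the inactive X chromosome that is named here because of its values. It stood at 10.8 to 11.1 in KO 1, KO 2 and WT 1 and at 3.79 to 4.12 in KO 3, WT 2 and WT 3, while all 30 stimulated samples were at 3.62 to 4.11. With a term for sex by Xist in the fit, each call of a member in the comparisons with naive cells was kept. Across the tested genes other than the members, deviations of KO and WT samples on the same side of this division were correlated. The mean was 0.34 in Treg and 0.15 to 0.19 in the other conditions. Single KO and WT pairs ran from 0.31 to 0.40 in Treg, 0.05 to 0.29 in Th0 and 0.11 to 0.24 in Th17. They were less even in naive cells (-0.25 to 0.55), Th1 (-0.03 to 0.33) and Th2 (-0.15 to 0.39). The labels name no batch for these samples. What the samples of each kind share was not tested.

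**Figure D4:**
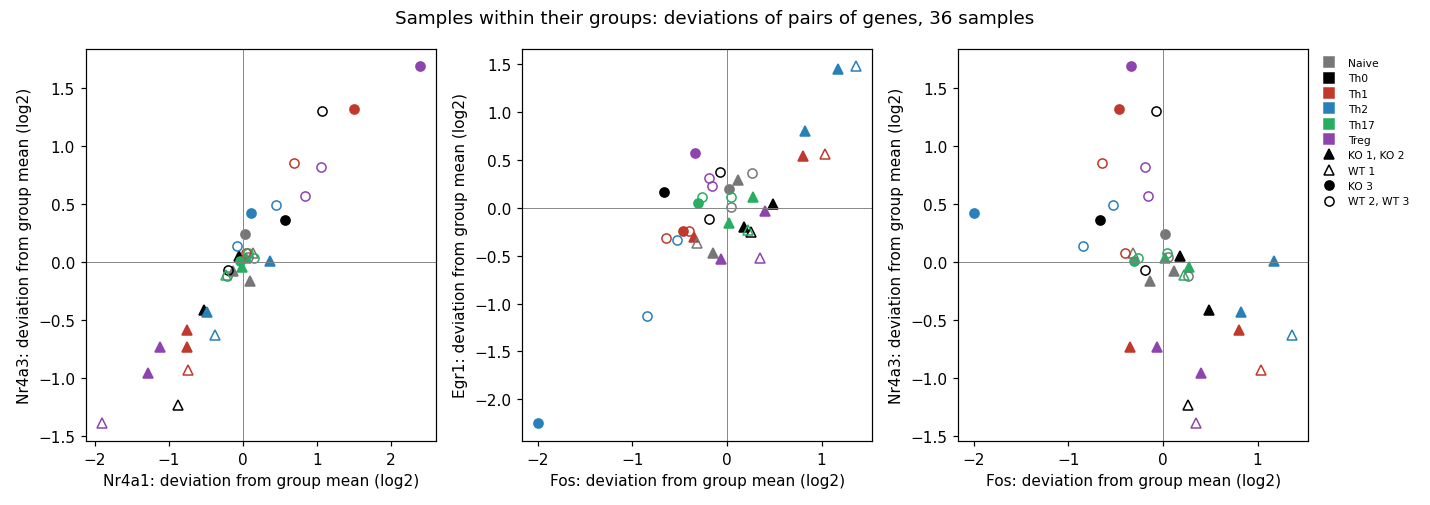
Deviation of each of 36 samples from its group mean (log2) for Nr4a3 against Nr4a1, Egr1 against Fos and Nr4a3 against Fos, coloured by condition. Filled symbols are KO and open ones WT, triangles are KO 1, KO 2 and WT 1, and circles KO 3, WT 2 and WT 3. The first panel forms a line (r = 0.96), the middle one follows at 0.81, and in the last panel triangles of the Th2 samples lie right of 0 and circles of the Treg samples above 0.

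Over the 36 samples as such, the closest genes to each member were as follows, by Pearson r across samples and with no test. Fos was nearest to Ppp1r15a (r = 0.91), Dusp5 (0.91) and Fosb (0.91). Fosb was nearest to Fos, Sf1 (0.89) and Dtx1 (0.88). Junb was nearest to Tnfaip3 (0.93), Per1 (0.92) and Maff (0.92), and Jun to Vps37b (0.87), Unc45a (0.85) and Hexim1 (0.84). For Egr1 these were Syde1 (0.87), Plk3 (0.84) and Maff (0.83). Egr2 was nearest to Egr3 (0.90), Nr4a1 (0.89) and Nr4a2 (0.84), and Egr3 to Nr4a1 (0.90), Egr2 and Nab2 (0.89). Nr4a1 was nearest to Nr4a3 (0.94), Egr3 and Egr2, and Nr4a3 to Nr4a1, Nr4a2 (0.84) and Bag3 (0.82).

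By group mean, the order of levels differed between the families. For Fos, Fosb and Junb the naive groups of both genotypes came first and did not overlap the next group. For Jun the naive groups also came first, and KO naive overlapped KO Th1, which came next. For Nr4a1 the first places went to WT naive, KO naive and KO Th17, all overlapping in turn, and the lowest was KO Treg. Nr4a3 had KO and WT naive first, overlapping each other, then KO Th17 and WT Th17, which overlapped neither each other nor their neighbours, and KO Th2 last. For Egr1, KO naive and WT naive came first and WT naive overlapped KO Th2. For Egr2 and Egr3 the Th17 groups preceded the naive groups and did not overlap them. For Egr2 this gap was close to a tie, with the lowest KO Th17 sample at 8.309 and the highest KO naive sample at 8.307. Th17 was not tested against naive cells. Further gaps between neighbours in the order lay below KO Th1 and below KO Treg for Jun, below WT Th2 for Junb, below KO Th1 for Egr1, between KO and WT naive for Egr2, and on both sides of WT Th17 for Nr4a1. The other neighbouring groups overlapped.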

How the data were processed

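Gene expression was measured on 1 array type in 36 samples. The authors deposited a table of log2 intensities per probe set. The submitters' processing notes name R 3.1.0, RMA and oligo with no role, and RMA corrects background, normalizes by quantiles and summarises probes, which can compress small changes. The deposited log2 values ran from 2.05 to 13.5, with sample medians of 5.18 to 5.35 and correlations of 0.98 to 0.992 between samples of a group, and were used with no further scaling. The table's columns were all used, and 0 were left out. Of 41345 probe sets, 23521 carry exactly 1 annotated symbol and 1814 carry several, which were not used. For a gene with several probe sets the one with the highest mean was kept. Genes above the table median of 5.26 in at least 3 samples were tested.

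Group means were fitted with limma 3.58.1 in R 4.3.3 (lmFit and eBayes) over all 12 groups, with 24 residual degrees of freedom, for 19 comparisons. Adjusted p-values are Benjamini-Hochberg values within a comparison. The test was tried on simulated KO and WT Th1 samples over 13082 genes. It called 59.7% of planted log2 changes of 0.5, 95.5% of those of 1 and 100% of those of 2. There were 10 false calls among 12882 unchanged genes. These shares pool all planted changes of a size, and the share called at the standard errors of the members was not tested. Replicate numbers were checked for pairing by the correlation of same-numbered deviations, and all 3 correlations were over 0.1 in WT Th1, WT Th2, KO Th1 and KO Treg against Th0 of the same genotype (for example 0.39, 0.33 and 0.23 in WT Th1). Alternatives were other filters, probe set means, quantile and median scaling, a trended robust prior, fits to the compared groups alone, replicate blocks, and each sample left out.

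The members, gene lists and marker lists were chosen with earlier results of these data known. By rule the names are all 9 members, some uncalled ones by their range only, up to 4 changed genes of each list with the largest log2 change, the 3 genes most correlated with each member, Trim28 and Mki67. Sex-linked, uncharacterized and small RNA symbols were otherwise left out. Figures were drawn with matplotlib 3.10.9.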

Additional observations from a re-analysis of the deposited data

Results flagged for a closer look

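The KO effect on Jun differed between the 6 conditions by limma's F test (F = 3.94, adjusted p = 0.025), which 38.2% of all genes passed. That test did not pass without KO Th1 sample 1 (F = 3.04), KO Th1 sample 3 (3.27), WT Th1 sample 1 (3.17) or WT Th1 sample 2 (2.99). Jun was 0.80 higher in KO cells in Th1 and 0.36 higher in Th0, while in naive cells and in Treg the KO change was -0.22 and -0.07. All 3 KO Th1 samples lay above all 3 WT Th1 samples.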

How the results depend on the processing

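The counts of changed members that moved by more than 1.5-fold were these. For WT Th1 over WT Th0 the count of 1 became 2 under the stricter filter (6.95), quantile normalization, a trended robust prior, only the groups compared and the replicate block. For WT Treg over WT Th0 the count of 2 became 1 with no filter. For WT Th2 over WT Th0 the count of 3 became 1 in a fit to only the groups compared, and KO over WT in Th17 became 1. For KO over WT in Th0 the count of 1 became 0 under median centering and without sample 1 of both KO Th0 and KO Th1, and 2 with a replicate block within genotype. The mean over 6 conditions went to 0 under median centering, and the F test to 0 without that pair. A term for the division of samples by number, added after seeing the data and so no support, gave 3 for KO over WT in Th0, 5 in Th1, 2 for the mean, 2 for the difference of the Th0 changes, 3 for the F test, and 2, 6 and 6 for WT Th1, WT Th2 and WT Treg over WT Th0. Leaving out 1 sample at a time gave 0 to 2 for KO over WT in Th0, 0 to 2 in Th2, 0 to 1 in Treg, 0 to 3 for the F test, 1 to 2 for WT Th1, 1 to 3 for WT Th2, 1 to 3 for WT Treg and 0 to 1 for KO Treg over Th0. Smaller moves were 6 to 7 for WT Th17 and 3 to 4 for KO Th2, each over Th0 of its genotype. WT Th0 over WT naive likewise gave 8 to 9. The causes of these shifts were not tested. The replicate block left 169 of 171 member results on the same side of the threshold. Where same-numbered samples correlated by the check above, it changed only the call of Junb in WT Th1. Elsewhere Egr3 passed in WT Th0 over WT naive (-1.17, adjusted p = 0.034). No result that passed changed its sign under any setting run. With 3 arrays per group, standard errors of 0.53 to 0.73 for Fos, Fosb, Egr1, Egr3, Nr4a1 and Nr4a3 hide differences that 0.14 to 0.18 would show for Junb and Jun.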
